A study of Mus musculus with 2 samples.

Results

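The proteasome genes are described here in 2 single-cell RNA libraries of Lineage- cKit+ bone marrow cells, a marrow fraction with hematopoietic stem cells (HSCs) and early progenitors. They were taken by symbol: every feature named as a Psma, Psmb, Psmc, Psmd, Psme, Psmf or Psmg gene, plus Adrm1, with at least 50 UMIs (unique molecular identifiers, which count captured molecules) over both libraries. Of 32285 features 50 matched, and 49 reached the minimum. Psmb11, the thymus-specific catalytic subunit, had 10 UMIs over both libraries and was left out.

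The knockout library came from Trsp f/f:Mx1-Cre mice and the control library from Trsp f/f mice, both C57BL/6, with 1 library per genotype. Trsp encodes the selenocysteine tRNA that cells need to make selenoproteins, and Mx1-Cre is driven by an interferon-inducible promoter. Mice of both genotypes received 3 injections of 500 µg pI-pC, an inducer of interferon, on alternating days, with 7 weeks after birth given as their time and 9 weeks from the last injection to sampling. The control carried no Cre, so loss of Trsp and presence of Cre cannot be told apart. The labels used here do not say how many mice stand behind a library or what share of knockout cells kept an intact allele.

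Kit, the gene of the surface protein used for selection, stood at 114 counts-per-million (CPM) in knockout cells and 98.8 CPM in control cells, and the lineage genes Cd3e and Ly6g stayed under 0.2 CPM in both. The myeloid lineage gene Itgam stood at 12.0 CPM in knockout cells and 13.4 CPM in control cells. Trsp itself was not analysed here. The selenoprotein gene Gpx1 stood at 253 CPM in the knockout library and 1508 CPM in the control library. All 8 selenoprotein genes listed for this genotype check were lower in the knockout. Txnrd1, a selenoprotein gene outside that list and described below with the NRF2 targets, stood at 84.0 CPM in knockout cells and 77.6 CPM in control cells. After filtering, 6640 knockout and 8046 control cells were kept, with medians of 20744 and 20352 UMIs per cell. Cells with fewer than 5000 UMIs made up 17.0% of the knockout cells and 3.44% of the control cells, and an unnamed cluster with a median of 1778.5 UMIs held 1293 knockout and 161 control cells. The median mitochondrial share of UMIs was 4.62% in knockout cells and 3.78% in control cells, and mt-Co1, a mitochondrial gene, stood at 8518 CPM in knockout cells and 6142 CPM in control cells and was higher in the knockout in each of the 8 classes compared below. The part of these signs in the results was not tested. The libraries shared 10 kept barcodes. A single library per genotype allows no test, so no p-value is given, and every interval below is a 95% interval for counting error only. Values are sums over cells, in which the RNA content of a cell and the number of cells of a kind cannot be told apart.

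The proteasome is the protease that degrades ubiquitin-tagged proteins. Its 20S core is a barrel of alpha and beta rings with the catalytic sites inside, and its 19S cap recognises ubiquitin, unfolds the substrate with a ring of ATPases and feeds it into the core. In blood cells and under interferon the constitutive catalytic subunits are partly replaced by the immunoproteasome subunits, which alter the peptides offered on MHC class I. Transcription of most subunit genes is raised by NRF1 (Nfe2l1) when proteasome activity is short.

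The promoters of the 3 genes that stood highest in the knockout and of the 2 that stood lowest are shown first. The genes were picked by these values, and the activity of the windows was not tested. Each window runs from 250 bases before to 50 bases after the annotated start, on the strand of the gene, from RefSeq on GRCm38.p6, and capitals mark a match to either of the motifs described beneath them.
Adrm1, chr2:180171338-180171637, + strand: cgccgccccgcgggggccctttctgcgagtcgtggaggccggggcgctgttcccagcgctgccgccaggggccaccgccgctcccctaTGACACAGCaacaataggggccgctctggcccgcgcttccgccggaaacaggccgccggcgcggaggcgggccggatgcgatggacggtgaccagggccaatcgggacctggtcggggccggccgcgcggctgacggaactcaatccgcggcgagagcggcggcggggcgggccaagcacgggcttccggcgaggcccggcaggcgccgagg
Psmd5, chr2:34870913-34871212, - strand: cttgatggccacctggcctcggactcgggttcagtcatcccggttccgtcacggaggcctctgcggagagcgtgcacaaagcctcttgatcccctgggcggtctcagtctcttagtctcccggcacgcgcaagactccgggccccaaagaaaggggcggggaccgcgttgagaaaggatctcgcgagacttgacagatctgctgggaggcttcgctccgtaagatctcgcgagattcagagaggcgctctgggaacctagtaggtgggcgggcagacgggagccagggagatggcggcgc
Psmd1, chr1:86064369-86064668, + strand: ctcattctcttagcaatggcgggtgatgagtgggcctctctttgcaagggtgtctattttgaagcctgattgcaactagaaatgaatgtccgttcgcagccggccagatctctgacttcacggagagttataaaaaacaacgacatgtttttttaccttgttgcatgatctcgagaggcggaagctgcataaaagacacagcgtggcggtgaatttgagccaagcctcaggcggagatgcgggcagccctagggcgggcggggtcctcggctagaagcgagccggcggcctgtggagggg
Psmb8, chr17:34197945-34198244, + strand: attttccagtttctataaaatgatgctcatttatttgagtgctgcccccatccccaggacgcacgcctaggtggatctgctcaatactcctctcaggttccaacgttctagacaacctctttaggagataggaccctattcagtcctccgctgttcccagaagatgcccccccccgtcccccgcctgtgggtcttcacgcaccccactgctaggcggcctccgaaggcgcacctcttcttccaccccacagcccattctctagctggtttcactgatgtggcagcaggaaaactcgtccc
Psmb9, chr17:34187281-34187580, - strand: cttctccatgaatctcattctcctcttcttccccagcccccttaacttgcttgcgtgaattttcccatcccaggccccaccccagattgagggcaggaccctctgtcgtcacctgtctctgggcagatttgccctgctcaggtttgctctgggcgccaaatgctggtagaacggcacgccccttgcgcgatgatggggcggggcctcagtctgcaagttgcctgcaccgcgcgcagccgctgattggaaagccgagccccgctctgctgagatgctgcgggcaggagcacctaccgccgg

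The first motif, TGACNNNGC, is the core of the antioxidant response element that NRF1 and NRF2 bind, and it was searched on both strands. Adrm1 held 1 match, TGACACAGC, with its first base at position -162 from the start, while the windows of Psmd5, Psmd1, Psmb8 and Psmb9 held none. These windows follow 1 RefSeq start each, and the start lies inside the longest extent that GENCODE gives the gene, by 103 bases in Adrm1, 232 in Psmd1, 434 in Psmb9, 474 in Psmb8 and 4006 in Psmd5, so a motif near a start further upstream was not looked for. Windows were found for 41 of the 49 proteasome genes, and 7 of these 41 (17.1%) held the motif (Adrm1, Psmd9, Psme4, Psmb6, Psmd12, Psmc6 and Psmb5), against 13.99% of all 27025 genes with a window. The second motif, GAAA and another GAAA with 2 bases between them, also on both strands, is the core of the interferon-stimulated response element, and no match of it overlapped a match of the first in these windows. It was present in 5 of the 41 (12.2%), namely Psmd4, Psmd9, Psmb3, Psmg4 and Psme1, and in 3.99% of all genes. Neither motif was present in the windows of the immunoproteasome genes Psmb8 and Psmb9.

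Over all kept cells, most constitutive proteasome genes had nearly the same level in both libraries, a few stood apart, and the largest difference was that of Adrm1. A gene is called measured where it reached 20 CPM in 1 library, and 47 of the 49 proteasome genes did so, among 6096 measured genes in all. Their median log2 ratio of CPM, knockout over control, was -0.01, and that of all measured genes was 0.08. At least 1.2-fold higher in the knockout were 4 of the 47 (Adrm1, Psmd5, Psmd1 and Psme4), where the background over all measured genes was 11.5%. At least 1.2-fold lower were 2 of the 47 (Psmb8 and Psmb9), against a background of 2.71%. Past 1.5-fold stood Adrm1 alone among those higher (background 1.02%) and none of those lower (background 0.607%). The proteasome genes together took 0.739% of UMIs in knockout cells and 0.750% in control cells.

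**Figure D1:**
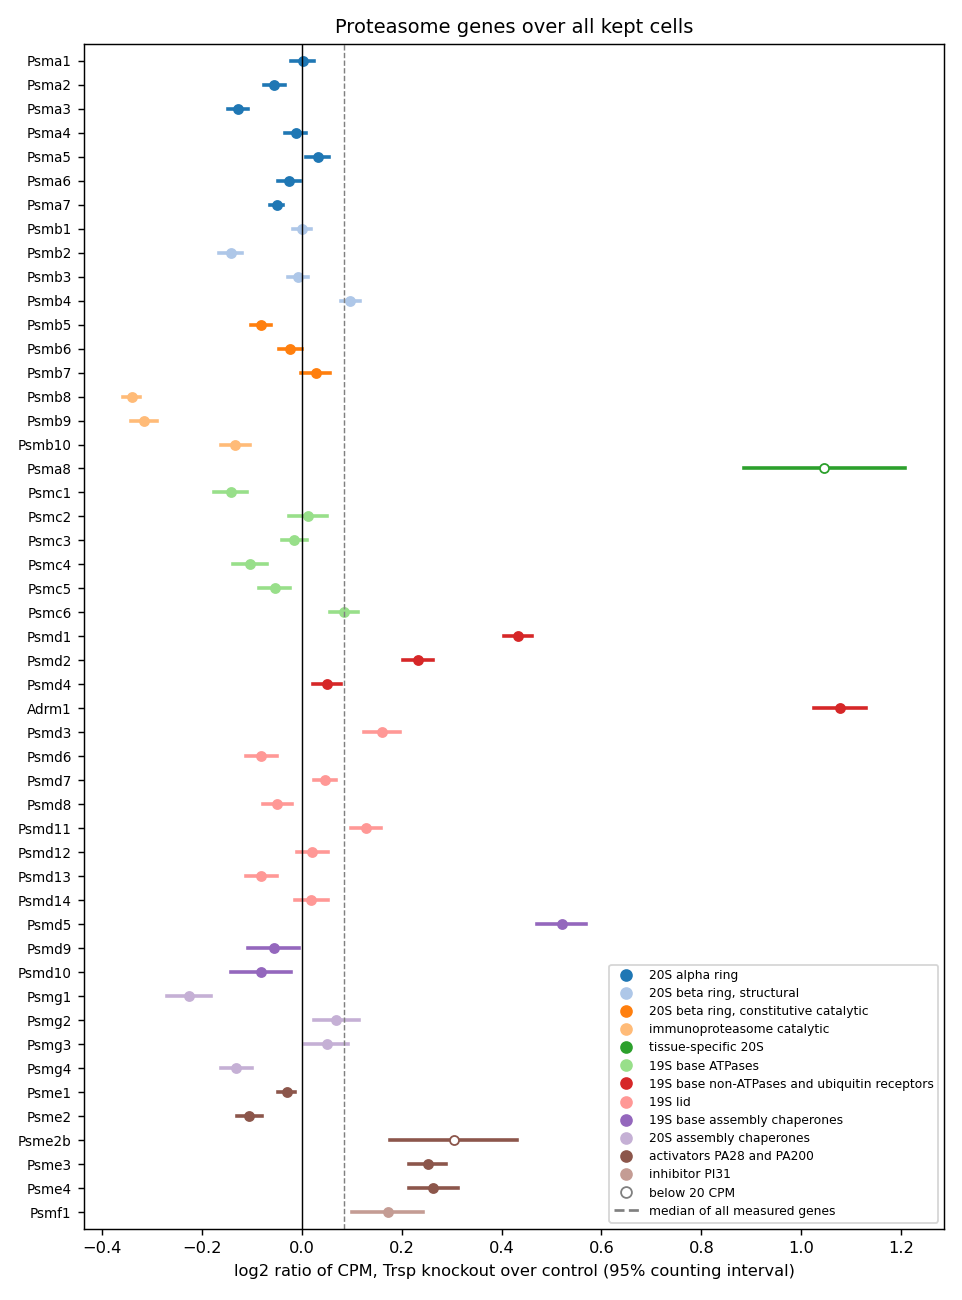
Log2 ratio of CPM (knockout over control, x axis) for each of the 49 proteasome genes over all kept cells, ordered and coloured by role, with bars for the 95% counting interval, open circles for genes below 20 CPM and a dashed line for the median of all measured genes. Adrm1 stands at 1.08, Psmd5 at 0.52 and Psmd1 at 0.43, Psmb8 at -0.34 and Psmb9 at -0.32, and the 14 core genes lie between -0.14 and 0.10.

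The 20S core is the barrel itself, made of Psma1 to Psma7 and Psmb1 to Psmb7. None of its 14 genes was 1.2-fold apart between the libraries, and the median log2 ratio was -0.02, which turned to 0.0011 with the stricter barcode filter and to 0.0080 with the classes weighted equally. The 7 alpha ring genes, which form the gate of the barrel, had a median of -0.03. Psma3 was the lowest of them, with 273 CPM in knockout cells and 298 CPM in control cells (log2 ratio -0.13, interval -0.15 to -0.11). Among the structural beta genes, Psmb2 had 181 CPM in knockout cells and 200 CPM in control cells (-0.14, -0.17 to -0.12) and was the lowest of the core. Psmb4 had 298 CPM in knockout cells and 278 CPM in control cells (0.10, 0.08 to 0.12) and was the highest of the core.

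The catalytic subunits form 2 sets of 3, and the sets differed. Of the constitutive set, Psmb5, which carries the chymotrypsin-like site, had 259 CPM in knockout cells and 274 CPM in control cells, a log2 ratio of -0.08 (-0.10 to -0.06). Psmb6, with the caspase-like site, had 215 CPM in knockout cells and 218 CPM in control cells (-0.02), a difference at the edge of its counting interval that turned to 0.0047 with the stricter barcode filter. Psmb7, with the trypsin-like site, had 127 CPM in knockout cells and 125 CPM in control cells (0.03, -0.0006 to 0.06), and the interval holds 0.

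Of the immunoproteasome set, Psmb8 (LMP7) takes the place of Psmb5, Psmb9 (LMP2) that of Psmb6 and Psmb10 (MECL1) that of Psmb7, and all 3 were lower in the knockout library. Psmb8 had 341 CPM in knockout cells and 431 CPM in control cells, a log2 ratio of -0.34 (-0.36 to -0.32) from 47097 and 71743 UMIs. Psmb9 had 134 CPM in knockout cells and 167 CPM in control cells (-0.32, -0.34 to -0.29). Psmb10 was nearer to even, with 118 CPM in knockout cells and 130 CPM in control cells (-0.13, -0.16 to -0.10). Psmb8 and Psmb9 are neighbours on chromosome 17, at 34197721 to 34201454 and 34181987 to 34187764 (mm10, GENCODE vM21), and Psmb9 overlaps Tap1 on the other strand, which stood at 65.6 CPM in knockout cells and 62.9 CPM in control cells. Psmb8 overlaps Gm20496 and Psmd1 overlaps Htr2b on the other strand in the same annotation.

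The 19S cap genes had a median log2 ratio of 0.02, which turned to -0.10 with median-of-ratios scaling, to -0.01 when mitochondrial and ribosomal protein genes were left out of the total, to -0.03 with cells thinned to 5000 UMIs and to -0.0087 without early erythroid-like cells. The 6 ATPases of the base, which unfold the substrate, had a median of -0.03. Psmc1 was the lowest, with 92.1 CPM in knockout cells and 102 CPM in control cells (-0.14, -0.18 to -0.11). The 8 lid genes, among them the deubiquitinase Psmd14, had a median of 0.02 and reached from -0.08 for Psmd6 and Psmd13 to 0.16 for Psmd3, which had 86.7 CPM in knockout cells and 77.5 CPM in control cells.

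The 19S genes that stood apart belong to the remaining part of the base, its scaffold and its ubiquitin receptors. Adrm1 (Rpn13), a ubiquitin receptor that also docks the deubiquitinase Uchl5, had 59.2 CPM in knockout cells and 28.1 CPM in control cells. The log2 ratio was 1.08 (1.03 to 1.13), a 2.11-fold difference, from 8192 and 4673 UMIs. Adrm1 lies at chr2:180171485-180176286 on the + strand, and the annotation places no other gene over it. Psmd1 (Rpn2), the scaffold to which Adrm1 binds, had 151 CPM in knockout cells and 112 CPM in control cells (0.43, 0.40 to 0.46). Psmd2 (Rpn1), the other scaffold, had 125 CPM in knockout cells and 106 CPM in control cells (0.23, 0.20 to 0.26). Psmd4 (Rpn10), also a ubiquitin receptor, had 135 CPM in knockout cells and 130 CPM in control cells, and its ratio of 0.05 turned to -0.07 with median-of-ratios scaling. All 4 genes of the scaffold and receptors were thus higher in the knockout by total counts, and Adrm1, Psmd1 and Psmd2 were higher under every scaling tried. In cells with at least 5000 UMIs alone, Adrm1 stood at a log2 ratio of 1.08.

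Of the 7 assembly chaperones 3 had an interval above 0 and 4 an interval below 0, and Psmd5 alone was 1.2-fold apart. Psmd5, which holds ATPases of the base before the cap is complete, had 53.3 CPM in knockout cells and 37.2 CPM in control cells, a log2 ratio of 0.52 (0.47 to 0.57). The other chaperones of the base, Psmd9 (-0.06) and Psmd10 (-0.08), lay below 0. Psmg1, which pairs with Psmg2 to build the alpha ring, had 51.2 CPM in knockout cells and 59.8 CPM in control cells (-0.23, -0.27 to -0.18), whereas Psmg2 stood at 0.07. Psmg3 (0.05) and Psmg4 (-0.13), the other pair of alpha ring chaperones, split as well. Psmd5 lies at chr2:34849734-34874968 and overlaps Cutal on the other strand, and the labels used here do not say whether counting used strand.

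The activators are caps that can take the place of the 19S. Psme4 (PA200), a nuclear activator, had 50.1 CPM in knockout cells and 41.7 CPM in control cells (0.26, 0.22 to 0.31). Psme3 (PA28 gamma), also nuclear, had 86.0 CPM in knockout cells and 72.2 CPM in control cells (0.25, 0.22 to 0.29). The interferon-inducible pair Psme1 and Psme2 went the other way by small amounts. Psme1 had 335 CPM in knockout cells and 342 CPM in control cells (-0.03), and Psme2 had 163 CPM in knockout cells and 175 CPM in control cells (-0.10). Psmf1, the inhibitor PI31, had 22.6 CPM in knockout cells and 20.1 CPM in control cells (0.17, 0.10 to 0.24).

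Psma8 and Psme2b did not reach 20 CPM. Psma8, the testis-type alternative to Psma7, had 854 UMIs (6.18 CPM) in knockout cells and 498 UMIs (2.99 CPM) in control cells, a log2 ratio of 1.05 (0.88 to 1.21). Psme2b had 7.43 CPM in knockout cells and 6.01 CPM in control cells, and since its sequence is close to that of Psme2, the split of reads between them is uncertain.

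Single cells were then assigned to classes by marker genes, and 8 of 13 classes had at least 100 cells in each library. In knockout and control cells these were HSC-like (411 and 503), multipotent or lymphoid-primed progenitor-like (713 and 720, called MPP-like), neutrophil progenitor-like (1203 and 1926), monocyte progenitor-like (850 and 1324), dendritic cell-like (154 and 179), basophil or mast-like (320 and 533), early erythroid-like (169 and 133) and megakaryocyte progenitor-like (141 and 188). For 7 of the 8 classes, the Leiden cluster (computed without the proteasome genes) that held the most cells of the class was the same in both libraries. The megakaryocyte progenitor-like cells were spread over several clusters, led by cluster 15 in the knockout (28.4%) and cluster 13 in the control (25.5%). In that class all 8 markers were lower in the knockout, with a summed level of 1520.5 CPM in knockout cells and 3299.6 CPM in control cells. Pf4 stood at 766 CPM in knockout cells and 2243 CPM in control cells, and the part of these markers in the values of that class was not tested.

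**Figure D2:**
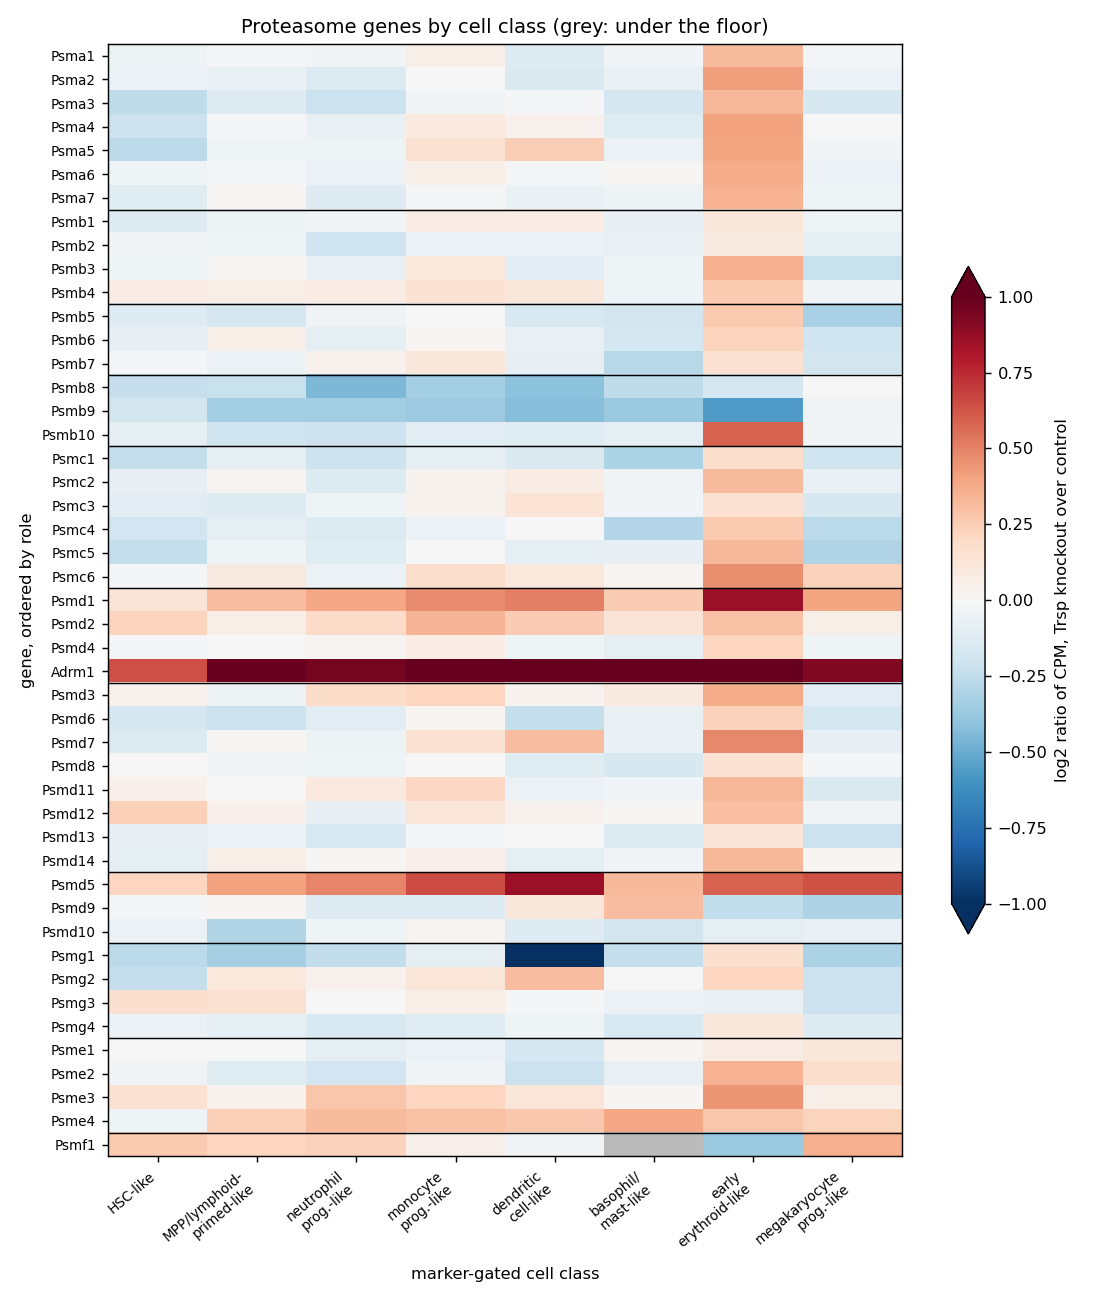
Log2 ratio of CPM (knockout over control, colour scale from -1 to 1, with values beyond it shown in the end colour) for the measured proteasome genes (rows, ordered by role) in the 8 cell classes (columns), with grey for a gene under the floor in a class. The early erythroid-like column is red for all 32 core and 19S genes, the Adrm1 row is red in all 8 columns, and the Psmb8 and Psmb9 rows are blue in most columns.

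Adrm1 was higher in the knockout in each of the 8 classes, and each interval lay above 0. In HSC-like cells it had 38.8 CPM in the knockout and 24.8 CPM in the control, a log2 ratio of 0.64 (0.36 to 0.94), the smallest of the 8. In MPP-like cells it had 49.2 CPM in the knockout and 24.8 CPM in the control (0.99, 0.79 to 1.19). The neutrophil progenitor-like class gave 58.3 CPM in the knockout and 29.99 CPM in the control (0.96, 0.86 to 1.06). Control values thus lay close together in these classes while knockout values spread. In monocyte progenitor-like cells the knockout had 63.7 CPM and the control 28.4 CPM (1.16, 1.05 to 1.28). Among dendritic cell-like cells Adrm1 had 49.9 CPM in the knockout and 20.8 CPM in the control (1.26, 0.76 to 1.78). The basophil or mast-like class gave 49.1 CPM in the knockout and 24.2 CPM in the control (1.02, 0.76 to 1.28), and in megakaryocyte progenitor-like cells 54.7 CPM in the knockout and 28.9 CPM in the control (0.92, 0.53 to 1.32). Early erythroid-like cells had the highest level in the knockout, 103.8 CPM, with 33.2 CPM in the control (1.64, 1.37 to 1.92). With each cell thinned to 5000 UMIs that last ratio was 0.91, and under the other alternatives it was at least 1.42. Every class of the knockout lay above every class of the control for Adrm1.

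Psmd1 and Psmd5 followed the same direction in all 8 classes, with intervals above 0 in 7 of them, the exception in both cases being HSC-like cells. Psmd1 reached 253 CPM in knockout and 139 CPM in control early erythroid-like cells, its largest log2 ratio (0.86, 0.72 to 1.01). In HSC-like cells Psmd1 had 105 CPM in the knockout and 96.4 CPM in the control, its smallest (0.13, -0.03 to 0.29). Psmd5 ranged from 0.22 in HSC-like cells (-0.04 to 0.47) to 0.86 in dendritic cell-like cells, where it had 41.8 CPM in the knockout and 23.1 CPM in the control from 98 and 52 UMIs. Psmd2 and Psme3 were also above 0 in 8 of 8 classes, but with smaller ratios, at most 0.34 for Psmd2 and 0.44 for Psme3. Psme4 was above 0 in 7 of 8, HSC-like cells being the exception (-0.05, -0.28 to 0.19).

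**Figure D3:**
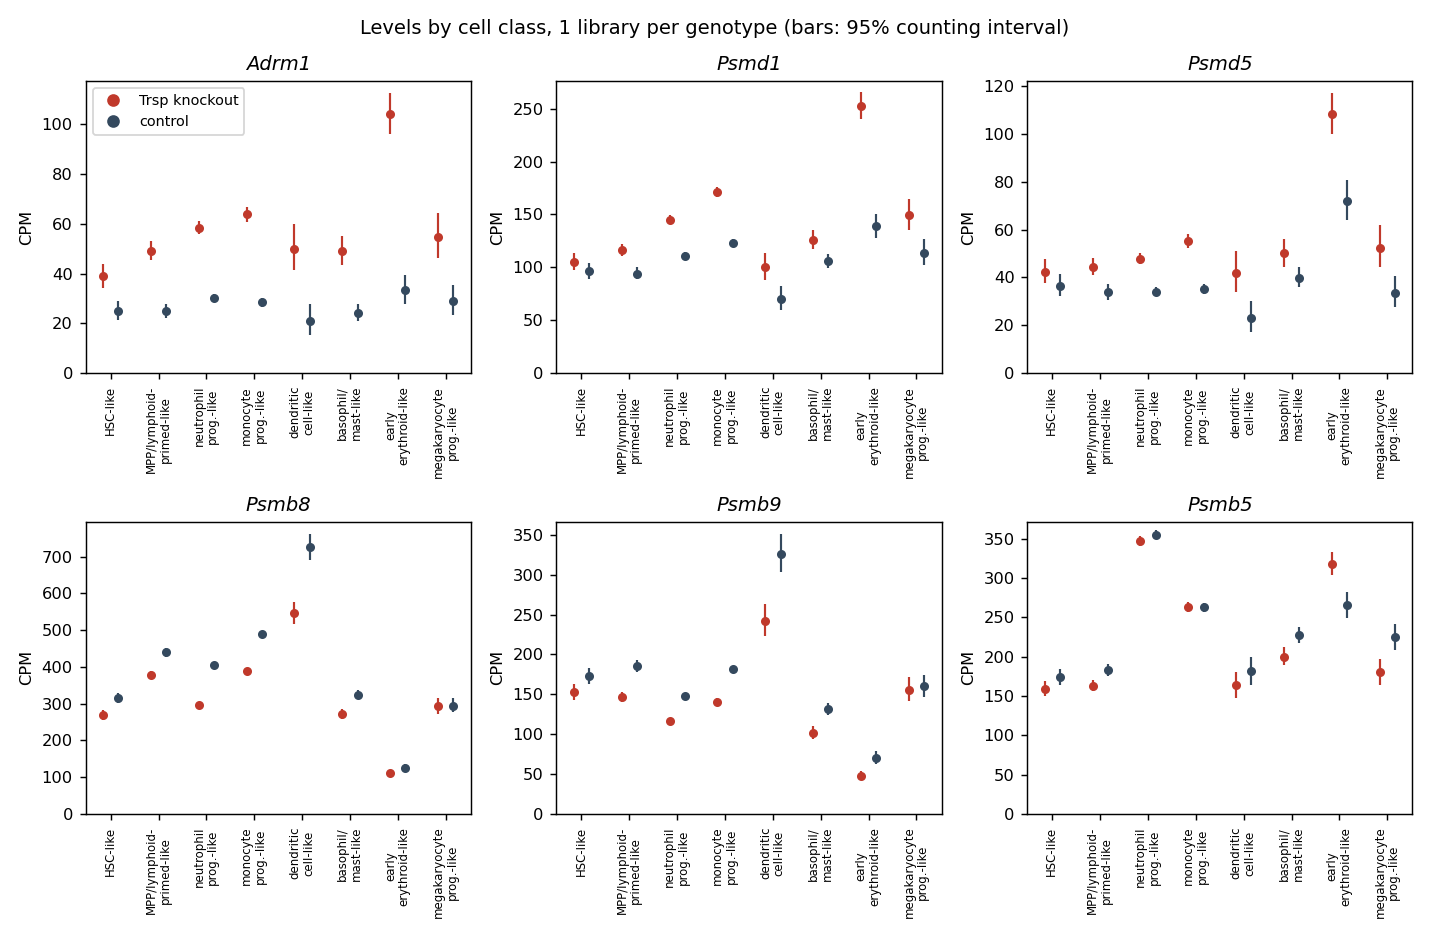
CPM (y axis) of Adrm1, Psmd1, Psmd5, Psmb8, Psmb9 and Psmb5 in the 8 cell classes (x axis), knockout in red and control in dark blue, 1 library per genotype, with bars for the 95% counting interval. Adrm1 lies between 38.8 and 103.8 CPM in knockout classes and between 20.8 and 33.2 CPM in control classes, and Psmb8 and Psmb9 are highest in dendritic cell-like and lowest in early erythroid-like cells of both genotypes.

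Psmb8 and Psmb9 were below 0 in 8 of 8 classes, with intervals below 0 in 7 each. The exception was the megakaryocyte progenitor-like class, where Psmb8 turned to 0.02 with Leiden classes or a stricter class margin and Psmb9 to 0.31 with cells thinned and 0.11 with the stricter margin. The largest difference of Psmb8 was in neutrophil progenitor-like cells, with 298 CPM in the knockout and 406 CPM in the control (-0.45, -0.48 to -0.41). In dendritic cell-like cells Psmb8 had 545 CPM in the knockout and 726 CPM in the control (-0.41, -0.52 to -0.31), and Psmb9 had 242 CPM in the knockout and 326 CPM in the control (-0.43, -0.59 to -0.27). In megakaryocyte progenitor-like cells Psmb8 had 293 CPM in the knockout and 295 CPM in the control (-0.01), and Psmb9 had 156 CPM in the knockout and 160 CPM in the control (-0.04). In early erythroid-like cells Psmb9 had 47.8 CPM in the knockout and 70.8 CPM in the control (-0.57, -0.81 to -0.32). There Psmb8 had 111 CPM in the knockout and 126 CPM in the control (-0.17), a direction that turned to 0.44 when the class was taken from Leiden clusters and to 0.11 when each cell weighed the same. Psmb10 was below 0 in 7 of 8 classes, with 3 intervals below 0, and stood at 0.59 in early erythroid-like cells.

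The early erythroid-like class had the largest difference in the constitutive proteasome as a whole. All 32 core and 19S genes had a log2 ratio above 0, 29 of them with an interval above 0, and their median was 0.32 where that of all measured genes in the class was 0.05. Of the 32, 19 were at least 1.2-fold higher, and over all 47 measured proteasome genes 24 were, against a background of 20.4%. At least 1.2-fold lower were 2 (Psmf1 and Psmb9), against a background of 13%. The median of the 32 lay between 0.25 and 0.33 over 10 alternatives. Summed over the 32 genes, knockout cells had 8318 CPM and control cells 6642 CPM. In monocyte progenitor-like cells, the next highest, 26 of the 32 had a ratio above 0, 17 with an interval above 0 and 2 with one below, and the sum was 6566 CPM in knockout cells and 6242 CPM in control cells (log2 ratio 0.073).

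Core genes of all roles shared in this. The alpha subunit Psma2 had 359 CPM in knockout and 268 CPM in control early erythroid-like cells (0.42, 0.31 to 0.53), and Psma7 had 727 CPM in the knockout and 571 CPM in the control (0.35, 0.28 to 0.42). Psmb5 had 318 CPM in the knockout and 266 CPM in the control (0.26, 0.15 to 0.37). In the cap, the lid gene Psmd7 had 496 CPM in the knockout and 355 CPM in the control (0.48, 0.39 to 0.57), and the ATPase Psmc6 had 198 CPM in the knockout and 144 CPM in the control (0.47, 0.32 to 0.61). Psmf1 had 45.9 CPM in the knockout and 59.4 CPM in the control (-0.37, -0.63 to -0.12), the only measured gene besides the immunoproteasome pair, Psmd9, Psmd10 and Psmg3 with a ratio below 0 in the class.

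Other values moved with this result. Median depth was 34945 UMIs per knockout cell and 26862 per control cell. Of the 10 erythroid markers 4 were higher and 6 lower in the knockout, and their summed level was 4804 CPM in knockout cells and 4620.4 CPM in control cells. Car1 stood at 1796 CPM in knockout and 1583 CPM in control cells and Klf1 at 207 CPM in knockout and 230 CPM in control cells. Hbb-bt stood at 1500 CPM in knockout and 635 CPM in control cells, and Hba-a1 at 345 CPM in knockout and 923 CPM in control cells. Cluster 17, led by globin genes and Car1, held 67.5% of the knockout cells and 60.2% of the control cells of the class. The clusters that came next differed in part between the libraries. In the knockout they were the unnamed cluster of low depth (13.02%) and cluster 15 (11.8%). In the control they were cluster 15 (21.1%) and the basophil or mast-like cluster 13 (12.8%). Cluster 15 was named megakaryocyte progenitor-like from marker scores, as no class had more than 1 marker among its leading genes. Shares in smaller clusters are not given. The summed level of 18 NRF2 target genes was 11040 CPM in knockout and 5747 CPM in control cells. The part of depth, cluster makeup and these genes in the proteasome difference was not tested.

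In the other 7 classes the median log2 ratio of the 32 core and 19S genes lay between -0.07 and 0.06, and the value of HSC-like cells turned to 0.02 with the stricter barcode filter. The counts below give the measured proteasome genes at least 1.2-fold higher and lower, each with its background over all measured genes of the class. HSC-like cells had 1 of 47 higher (10.3%) and 1 lower (7.11%), and MPP-like cells had 3 of 47 higher (9.11%) and 3 lower (4.36%). Neutrophil progenitor-like cells had 5 of 47 higher (25.8%) and 2 lower (3.58%), and monocyte progenitor-like cells had 5 of 47 higher (12.1%) and 2 lower (2.99%). Dendritic cell-like cells had 7 of 48 higher (24.5%) and 3 lower (12.5%). The basophil or mast-like class had 4 of 46 higher (13.3%) and 4 lower (7.76%). Megakaryocyte progenitor-like cells had 4 of 47 higher (19.9%) and 5 lower (11%). Counts of genes that stood higher were thus at or under the background in 7 of 8 classes. The monocyte progenitor-like class was the only one of these 7 with a median above 0 (0.06). That median lay below the 0.08 of all measured genes in the class, and it turned to -0.04 with median-of-ratios scaling. The lowest in the basophil or mast-like class, after Psmb9, was Psmc1, with 76.6 CPM in the knockout and 95.3 CPM in the control (-0.32, -0.48 to -0.15). In megakaryocyte progenitor-like cells the lowest was Psmb5, with 180.2 CPM in the knockout and 225 CPM in the control (-0.32, -0.49 to -0.15). Psmg1 in dendritic cell-like cells had 12.8 CPM in the knockout and 26.2 CPM in the control, from 30 and 59 UMIs (-1.03, -1.72 to -0.38), the lowest ratio of any proteasome gene in the 8 classes.

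**Figure D4:**
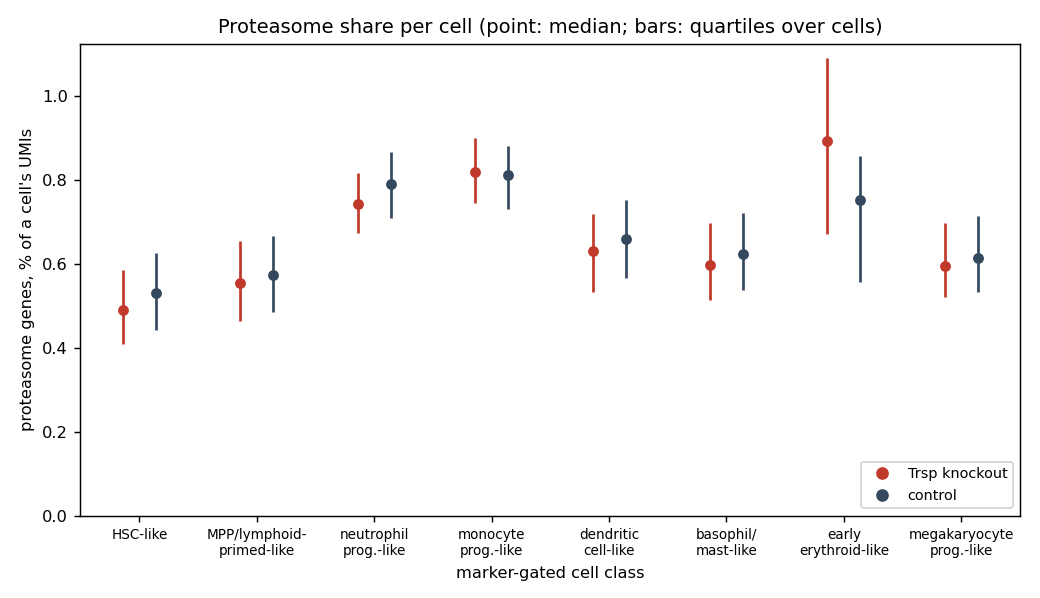
Percent of a cell's UMIs that came from the 49 proteasome genes (y axis) in each of the 8 cell classes (x axis), with points for the median and bars for the quartiles over cells, knockout in red and control in dark blue. The early erythroid-like class has a median of 0.893% in knockout cells and 0.752% in control cells, and the quartile ranges of the genotypes overlap in all 8 classes.

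Across classes, the proteasome share followed the same rough order in both libraries. Over summed UMIs it was lowest in HSC-like cells, with 0.540% in the knockout and 0.568% in the control. Neutrophil progenitor-like cells had 0.758% in the knockout and 0.798% in the control, and monocyte progenitor-like cells had 0.837% in the knockout and 0.818% in the control. Early erythroid-like cells had 0.982% in the knockout and 0.802% in the control, so the class was the highest in the knockout but below the monocyte progenitor-like class in the control. Median depth differs between classes as well, at 13697 UMIs in knockout and 12488 UMIs in control HSC-like cells and 30504 UMIs in knockout and 24665 UMIs in control monocyte progenitor-like cells.

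The balance between immunoproteasome and constitutive catalytic subunits spanned 25.4% to 66.3% over the knockout classes and 28.4% to 70.5% over the control classes, while knockout minus control lay between -5.80 and 3.86 points within a class. It is given as the share of Psmb8, Psmb9 and Psmb10 in the UMIs of the 6 catalytic genes, Psmb5 to Psmb10. Over all kept cells the share was 49.7% in the knockout (82022 of 165179 UMIs, exact binomial interval 49.4% to 49.9%) and 54.1% in the control (121128 of 223885 UMIs, 53.9% to 54.3%). Dendritic cell-like cells, which present antigen, had the highest share, 66.3% in the knockout (64.6% to 67.9%) and 70.5% in the control (69.0% to 72.0%). Early erythroid-like cells had the lowest, 25.4% in the knockout (24.3% to 26.5%) and 28.4% in the control (27.0% to 29.9%). With the class taken from Leiden clusters the erythroid difference turned to 2.88 points in the other direction.

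The share was lower in the knockout in most classes. Neutrophil progenitor-like cells had 43.2% in the knockout and 49.0% in the control, and monocyte progenitor-like cells had 50.7% in the knockout and 56.4% in the control, which are the largest differences of the 8. MPP-like cells had 58.5% in the knockout and 61.6% in the control, and HSC-like cells 56.1% in the knockout and 57.9% in the control. The MPP-like difference of -3.11 points was -0.39 with Leiden classes, and the HSC-like one of -1.83 points was -4.41 with cells thinned. The Leiden MPP-like class was cluster 10 alone. Cluster 9, which held 20.1% of knockout and 12.4% of control MPP-like cells, was named HSC-like there. Basophil or mast-like cells had 49.1% in the knockout and 49.9% in the control with overlapping intervals, and the difference turned to 1.09 points in the other direction when cells were thinned. Megakaryocyte progenitor-like cells went the other way, with 54.7% in the knockout (52.8% to 56.5%) and 50.8% in the control (49.1% to 52.5%). That difference of 3.86 points was 1.19 with Leiden classes, and the marker sums and leading clusters of this class differed between the libraries as given above. There Psmb5, Psmb6 and Psmb7 were below 0 (-0.32, -0.20 and -0.18), while Psmb8 and Psmb9 stood near 0.

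**Figure D5:**
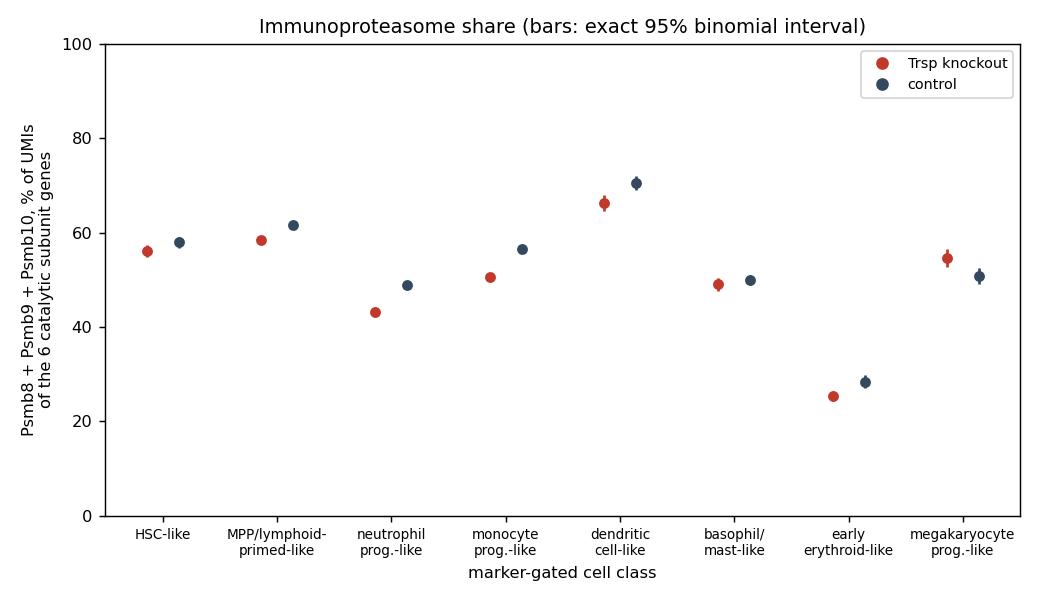
Share of Psmb8, Psmb9 and Psmb10 in the UMIs of the 6 catalytic subunit genes (y axis, percent) in each of the 8 cell classes (x axis), knockout in red and control in dark blue, with bars for the exact 95% binomial interval. The share runs from 25.4% in knockout and 28.4% in control early erythroid-like cells to 66.3% in knockout and 70.5% in control dendritic cell-like cells, and is lower in the knockout in 7 of 8 classes, of which the basophil or mast-like and early erythroid-like ones turned direction under an alternative.

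Individual genes varied between classes by different amounts. The range of log2 CPM over the 8 classes, taken as the smaller of the ranges in the 2 libraries, had a median of 0.88 over the 47 measured proteasome genes and 0.94 over all 6096 measured genes. Psmb8 (2.29) and Psmb9 (2.21) had the widest ranges, with dendritic cell-like cells highest and early erythroid-like cells lowest in both libraries. Psmd7, a lid subunit, came next (1.82), with early erythroid-like cells highest and dendritic cell-like cells lowest in both. The core chaperones Psmg2 (1.65), Psmg1 (1.57) and Psmg3 (1.56) followed, all lowest in dendritic cell-like cells. Psmg2 had 102 CPM in knockout and 87.4 CPM in control early erythroid-like cells, against 32.4 CPM in knockout and 26.2 CPM in control dendritic cell-like cells. The 14 core genes had a median range of 0.80, and Psmb1 had the narrowest of all (0.36). For Adrm1 the range was 0.67, which is that of the control library, and in the knockout library it was 1.42.

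Genes that act with the proteasome were described by lists. Of 9 measured partners outside the naming rule, 1 was at least 1.2-fold higher in the knockout over all kept cells and none lower (background 11.5% and 2.71% of all measured genes), a share near the background, with a median log2 ratio of 0.07. Zfand5, which activates the proteasome, had 135 CPM in knockout cells and 106 CPM in control cells (0.35), and Ube3c, a proteasome-bound ubiquitin ligase, stood at 0.23. Uchl5, the deubiquitinase that Adrm1 recruits, had 122 CPM in knockout cells and 130 CPM in control cells (-0.09), so it did not share the direction of Adrm1. Sem1, the smallest subunit of the lid, had 695 CPM in knockout cells and 792 CPM in control cells (-0.19).

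Of 16 measured ubiquitin genes, activating enzymes and shuttle factors, 5 were at least 1.2-fold higher (background 11.5%) and 1 lower (2.71%). The polyubiquitin gene Ubb had 922 CPM in knockout cells and 610 CPM in control cells (0.60), and the p97 adaptor Nploc4 had 29.0 CPM in knockout cells and 21.5 CPM in control cells (0.43). Rps27a, which encodes ubiquitin fused to a ribosomal protein, stood at -0.17.

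The list of the NRF1 axis had 6 measured genes, of which 2 were at least 1.2-fold higher (background 11.5%) and none lower (2.71%), with a median of 0.17. Nfe2l1, the gene of NRF1 itself, had 50.3 CPM in knockout cells and 48.5 CPM in control cells (0.05), and Mafk stood at 0.08. Mafg, a partner of NRF1 and NRF2, had 74.5 CPM in knockout cells and 48.5 CPM in control cells (0.62), and Bach1, a repressor at the same sites, 38.5 CPM in knockout cells and 29.6 CPM in control cells (0.38). Of 12 measured NRF2 targets 9 were at least 1.2-fold higher (background 11.5%) and none lower (2.71%). Gclm, a subunit of the glutathione-making ligase, led them with 223 CPM in knockout cells and 84.0 CPM in control cells (1.41), followed by Ftl1 (1.26). The lowest were Txnrd1 (0.11) and Tkt (0.09).

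The MHC class I processing genes, which work on the peptides that the immunoproteasome makes, had a median of 0.04 over 14 measured genes, with none at least 1.2-fold higher (background 11.5%) and 1 lower (2.71%). H2-D1 had 390.3 CPM in knockout cells and 498 CPM in control cells (-0.35) and H2-K1 had 524 CPM in knockout cells and 591 CPM in control cells (-0.17). The peptide transporter gene Tap2 (0.23) and the loading factor gene Tapbp (0.14) were the highest. The proliferation lists had medians of 0.08 over 14 S phase genes (Rrm1 0.29 and Mcm6 0.22 the highest, Gins2 -0.11 and Mcm7 -0.50 the lowest) and 0.09 over 12 G2 and M phase genes (Mki67 0.21 and Aurka 0.13 the highest, Cks2 -0.08 and Birc5 -0.14 the lowest).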

How the data were processed

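Single-cell RNA was measured in 1 library per genotype, grouped by the genotype labels. Raw UMI counts, deposited per gene and barcode, came from 10x 3′ v3.1 libraries made with Cell Ranger 6.1.2 and mm10, per the labels' protocols and the submitters' processing notes. How cells were called and whether strand was used in counting is not stated there. The deposited totals were 152092210 UMIs in 11556 knockout barcodes and 184683653 UMIs in 14372 control barcodes. Droplets can also take up free RNA, so shares of cells with a UMI are not used as results.

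A barcode was kept with 500 or more genes and less than 10% mitochondrial UMIs. Doublets were called with Scrublet (scanpy 1.11.5, expected rate 10%). Its automatic thresholds were 0.476 for the knockout and 0.433 for the control, and after seeing them the control's was applied to both libraries, which removed 66 knockout and 146 control cells.

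Each class had a score, the mean over its markers of z-scored log values. A cell was assigned to its top class where the score was at least 0.5, the margin over the next class at least 0.2, and at least 3 markers had a UMI. These limits were set after the data were seen. They left 2485 knockout and 2260 control cells unassigned. Of cells in compared classes, those within 0.1 of a limit ranged from 4 to 220 per library.

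UMIs were summed per class and scaled to CPM. The sums have exact Poisson intervals, ratios have exact conditional binomial intervals and shares have exact Clopper-Pearson intervals, all at 95% and for counting error only. No test was made. A ratio step was tested on simulated data. Alternatives changed filters, doublets, depth, scaling, cell weighting, the floor and the class definition. All proteasome genes are accounted for. Values are given for the catalytic subunits, ubiquitin receptors and activators, for the 6 highest and 6 lowest over all cells, for the 2 highest and 2 lowest per class, for the 6 with the widest range over classes and for the 2 highest and 2 lowest of each list, and examples beyond these were chosen after their values were seen. Some genes outside the proteasome are not reported here. The genes, lists and comparisons were chosen with earlier results of these data known. Coordinates are from GENCODE vM21 (mm10) or, for promoters, RefSeq.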

Additional observations from a re-analysis of the deposited data

Results flagged for a closer look

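The genotypes differed in opposite directions between classes for the summed core and 19S genes. The log2 ratio of knockout over control was 0.32 in early erythroid-like and 0.073 in monocyte progenitor-like cells, but -0.074 in HSC-like, -0.049 in neutrophil progenitor-like, -0.064 in basophil or mast-like and -0.072 in megakaryocyte progenitor-like cells, each with a counting interval that leaves out 0. The differences between classes were not tested, with 1 library per genotype. The monocyte progenitor-like median of these genes was 0.058, where that of all measured genes in the class was 0.077. It turned to -0.04 with median-of-ratios scaling.

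Knockout minus control, the immunoproteasome share differed by 3.86 points in megakaryocyte progenitor-like cells. In the other direction it differed by -5.80 points in neutrophil progenitor-like, -5.77 in monocyte progenitor-like, -4.20 in dendritic cell-like, -3.11 in MPP-like, -2.97 in early erythroid-like and -1.83 in HSC-like cells. These differences between classes were not tested either.

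For 24 proteasome genes the intervals lay above 0 in at least 1 class and below 0 in another, again with no test of the difference between classes. Early erythroid-like cells were the highest class for 22 of them, and each gene's log2 ratio there is given before that of its lowest class with an interval below 0. With neutrophil progenitor-like cells lowest were Psmb10 (0.59 and -0.21), Psma2 (0.42 and -0.13), Psma6 (0.37 and -0.056), Psma7 (0.35 and -0.13), Psmc2 (0.31 and -0.14) and Psmd12 (0.30 and -0.084). With HSC-like cells lowest were Psmd7 (0.48 and -0.14), Psma4 (0.40 and -0.22), Psma5 (0.39 and -0.26), Psma3 (0.33 and -0.26), Psmg2 (0.22 and -0.24) and Psmb1 (0.12 and -0.13). With megakaryocyte progenitor-like cells lowest were Psmb3 (0.35 and -0.22), Psmc5 (0.32 and -0.30), Psmb5 (0.26 and -0.32) and Psmb6 (0.22 and -0.20). With basophil or mast-like cells lowest were Psmc4 (0.26 and -0.29), Psmc1 (0.18 and -0.32) and Psmb7 (0.15 and -0.28). With MPP-like cells lowest were Psmd6 (0.23 and -0.21) and Psmc3 (0.16 and -0.13), and with dendritic cell-like cells lowest was Psme2 (0.35 and -0.21). In the remaining pair early erythroid-like cells were the lowest, Psmf1 standing at 0.23 in neutrophil progenitor-like cells and -0.37 in early erythroid-like cells, and Psmd9 at 0.31 in basophil or mast-like cells and -0.25 in early erythroid-like cells.

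Adrm1 was also higher in barcodes that the class comparisons do not use. In kept cells of no assigned class it had 60.7 CPM in the knockout and 28.7 CPM in the control, a log2 ratio of 1.08 (0.99 to 1.18). In barcodes left out by the filter it had 31.0 CPM in the knockout and 18.7 CPM in the control, a log2 ratio of 0.73 (0.49 to 0.97).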

How the results depend on the processing

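No paired analysis was possible because each genotype has 1 library. In the tallies that follow, the limits of a median are the medians of its genes' lower and upper limits, which is not a counting interval of the median. Of the values recomputed for medians, counts and shares that answer a comparison, 165 stayed within their limits or within 1.5 times the count. Another 19 left them, and 2 whose limits leave out 0 changed sign, and the cause was not tested. Of the 166 medians and shares among them, 10 had the other sign, in 6 results (the core, 19S, HSC-like and monocyte medians and the basophil and early erythroid shares). Under the stricter limits of 1000 genes and 5% mitochondrial UMIs (3954 knockout and 6725 control cells), the 19S median was 0.057, Psmb6 was 0.0047 and the erythroid share difference was -5.13 points. Median-of-ratios scaling, which put the median of all genes at -0.03 in place of 0.08, gave -0.14 for the core, -0.43 for the immunoproteasome, -0.10 for the 19S, -0.067 for Psmd4, -0.22 for core and 19S in neutrophil progenitor-like and -0.036 in monocyte progenitor-like cells. Without mitochondrial and ribosomal protein genes in the total, the core was -0.050, the immunoproteasome -0.35 and the 19S -0.013. Psmb8 in early erythroid-like cells turned to 0.11 when each cell weighed the same. With cells thinned to 5000 UMIs (5513 knockout and 7769 control cells), the core was -0.050, the 19S -0.030, and the share differences were -4.41 in HSC-like, -5.08 in neutrophil progenitor-like, 1.09 in basophil or mast-like and -4.89 points in early erythroid-like cells. With Leiden classes the share differences were -0.39 in MPP-like, 2.88 in early erythroid-like and 1.19 points in megakaryocyte progenitor-like cells, and erythroid Psmb8 was 0.44. Chosen after seeing the data, leaving out early erythroid-like cells gave -0.040 for the core, and equal weights for the classes 0.0080. Adrm1 over all kept cells stayed between 0.96 and 1.12, and 3 to 6 proteasome genes were at least 1.2-fold higher and 2 to 3 lower over the alternatives tried. The limits are 1 library per genotype, counts of 47 to 132 UMIs behind Adrm1 in the smallest control classes, and 3′ reads that cannot separate near-identical copies.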
